A study of Mus musculus with 9 samples.

Results

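A set of 10 genes that mark the fibroblasts of the adventitia, the outer coat of an artery, was followed by symbol through the table of counts from mouse aorta: Pdgfra, Dcn, Lum, Dpt, Pi16, Cd34, Ly6a, Gsn, Clec3b and Serpinf1. All 10 were found among the 55453 genes listed, and all 10 were among the 19412 genes with enough counts to be tested. The lowest count of any of them in a library was 437 (Clec3b in Myh11-Cre 1), so each gene was well counted in every aorta. The tissue was aorta of C57BL/6J mice, 3 mice in each of 3 genotypes, with 1 library per mouse. The genotype labelled Itga8-Cre is the study's Itga8-CreERT2 line, named for integrin alpha 8, in which tamoxifen switches on a Cre recombinase. The genotype labelled Myh11-Cre is the Myh11-CreERT2 line in common use, named for smooth muscle myosin heavy chain, and the remaining mice are labelled Wild Type. The purpose of the series was to set the activity of the 2 lines side by side in vascular smooth muscle. The labels give no age, sex, tamoxifen treatment, litter or batch for any group.

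Adventitial fibroblasts lie outside the smooth muscle layer and make the collagen-rich matrix that tethers the vessel to the tissue around it. They are recognised by the receptor PDGFR alpha together with secreted matrix proteins, and a subset that carries Pi16, Cd34 and Ly6a (Sca-1) is found in the outer coat of many vessels and has been described as a reservoir of progenitor cells. Both Cre lines aim at smooth muscle cells, so these genes belong mostly to cells next to the targeted ones. In bulk tissue, fewer cells of a type and less RNA per cell cannot be told apart.

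Levels of these genes differed between mice of 1 genotype, to a degree common among tested genes. The spread between mice that edgeR estimates lay above that of 31.5% (Ly6a) to 74.0% (Dpt) of tested genes. Across the 9 libraries, Myh11-Cre 2 had the highest level of 6 of the 10 genes, Myh11-Cre 3 of 3 and Itga8-Cre 2 of 1. The lowest level was in Itga8-Cre 3 for 4 genes, in Myh11-Cre 1 for 4 and in Wild Type 2 for 2. The 3 mice of 1 genotype, Myh11-Cre, thus held both ends of the range for several genes. By edgeR's quasi-likelihood test with Benjamini-Hochberg adjustment over all 19412 genes, 0 of the 10 genes differed between any 2 genotypes, and DESeq2 and limma voom also called 0. In each of the 3 comparisons edgeR and limma voom called 0% of all genes tested, and DESeq2 called 0.166% in Itga8-Cre against Wild Type, 4.44% in Myh11-Cre against Wild Type and 0.109% between the Cre lines. In these comparisons 0, 1 and 1 of the 10 genes had an unadjusted p under 0.05 in edgeR. Of all genes tested 6.78%, 16.4% and 9.48% had one.

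Library totals ran from 31419238 to 42497543 counts. Levels are given as CPM, counts per 1000000 after TMM scaling of library size. Other tissue carried with the vessel varied widely. The summed level of 11 skeletal muscle markers was lowest in Myh11-Cre 1 (88.7 CPM) and highest in Myh11-Cre 3 (15807 CPM), Myh11-Cre 2 (10137 CPM) and Itga8-Cre 3 (6872 CPM). The sum of 10 smooth muscle markers ranged from 1220.1 to 3616 CPM, so the labelled tissue was present in every library.

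**Figure D1:**
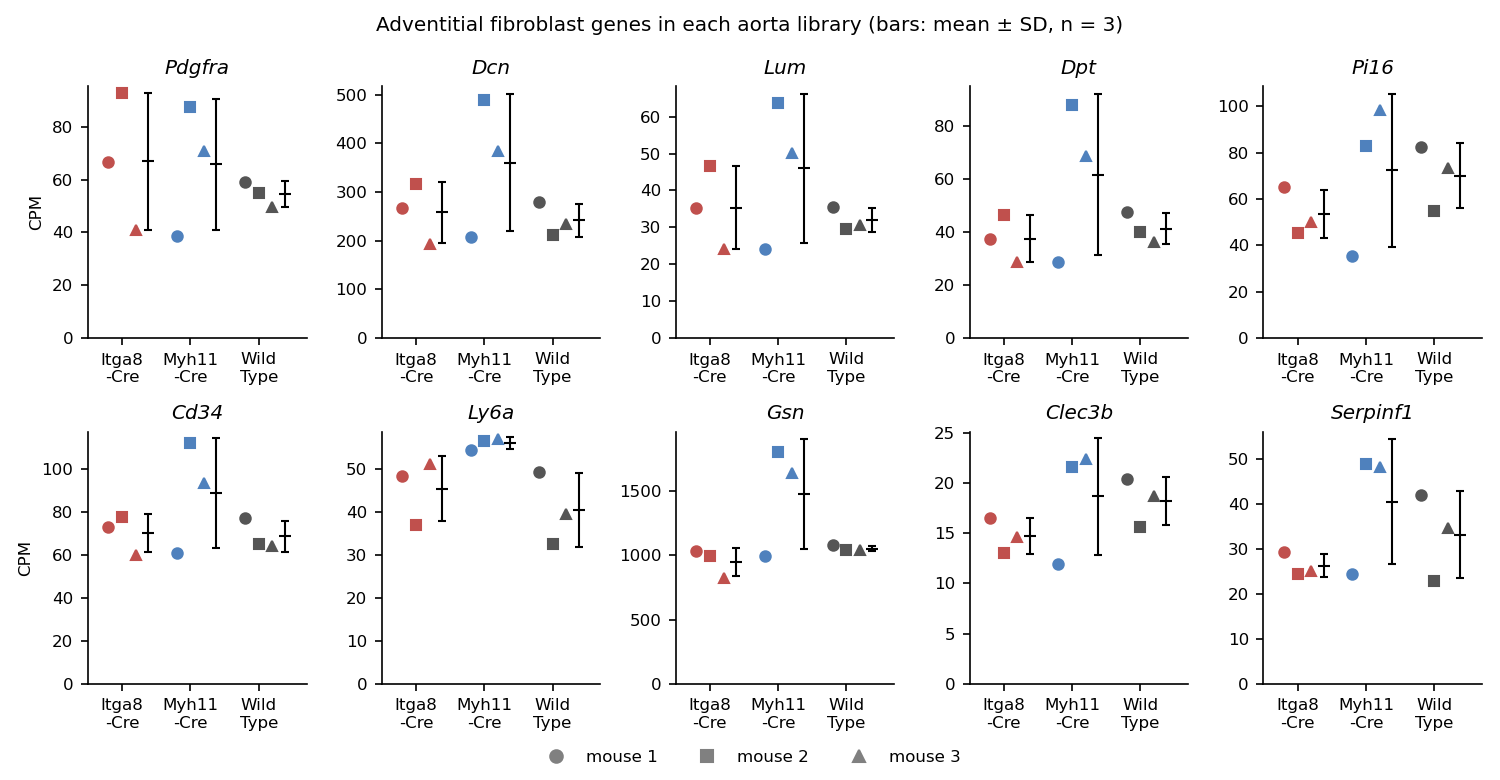
Level of each gene in CPM (y axis, from 0) in the 3 genotypes (x axis). Each point is 1 mouse, with circles, squares and triangles for mice 1, 2 and 3, and bars show mean ± SD (n = 3). Myh11-Cre 2 and 3 stand above Myh11-Cre 1 for all genes, while the 3 Myh11-Cre values of Ly6a lie close together.

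Pdgfra, the receptor tyrosine kinase for platelet-derived growth factor that defines the fibroblast lineage here, lies on chromosome 5 (75152292 to 75198215, GRCm38). It stood at 66.8, 92.8 and 41.1 CPM in Itga8-Cre mice 1, 2 and 3, at 38.8, 87.7 and 70.8 CPM in the Myh11-Cre mice and at 59.2, 55.0 and 49.5 CPM in the Wild Type mice, always in this order. Both Cre groups held values above and below the whole Wild Type range, so the groups overlapped. The mean of the Itga8-Cre mice was 66.9 ± 25.8 CPM (SD, n = 3), that of the Myh11-Cre mice 65.7 ± 24.8 CPM and that of the Wild Type mice 54.6 ± 4.83 CPM. The log2 fold change against Wild Type was 0.29 (95% interval -0.47 to 1.06) in Itga8-Cre and 0.27 (-0.50 to 1.04) in Myh11-Cre. These intervals, and those that follow, are from the edgeR fit for single genes, without adjustment for the number of genes.

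Dcn and Lum encode decorin and lumican, small leucine-rich proteoglycans that bind collagen fibrils and govern their spacing. They are neighbours on chromosome 10, Dcn at 97479609 to 97518143 and Lum at 97565128 to 97572703, both on the plus strand with 46984 bases and 0 annotated genes between them. Dcn stood at 266, 317 and 192 CPM in the Itga8-Cre libraries, at 208, 488 and 385 CPM in the Myh11-Cre libraries and at 279, 211 and 234 CPM in the Wild Type libraries. Lum stood at 35.1, 46.7 and 24.2 CPM in the Itga8-Cre libraries, at 24.1, 63.9 and 50.2 CPM in the Myh11-Cre libraries and at 35.6, 29.6 and 30.7 CPM in the Wild Type libraries. Both genes were high in Myh11-Cre 2 and 3 and low in Itga8-Cre 3 and Myh11-Cre 1, and all groups overlapped. The ratio of Lum to Dcn counts moved little, from 0.116 to 0.148 with a median of 0.131 over the 9 libraries, while Lum itself ranged 2.65-fold. The mean log2 ratio was -2.89 ± 0.12 (SD, n = 3) among Itga8-Cre mice, -2.99 ± 0.10 among Myh11-Cre mice and -2.91 ± 0.07 among Wild Type mice. The proteoglycan genes Kera (keratocan) and Epyc (epiphycan), named here for their position and outside the rule for named genes, follow Lum in the same cluster. Kera reached at most 15 counts and Epyc at most 49 counts in a library, so of the 4 neighbours Dcn and Lum carried nearly all counts.

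Dpt encodes dermatopontin, a small matrix protein that binds decorin and speeds collagen fibril formation (chromosome 1, 164796644 to 164824266). It stood at 37.5, 46.4 and 28.6 CPM in the Itga8-Cre libraries, at 28.6, 88.0 and 68.7 CPM in the Myh11-Cre libraries and at 47.6, 40.0 and 36.3 CPM in the Wild Type libraries. It had the widest spread within a genotype of the 10 genes, 3.08-fold among the Myh11-Cre mice against 1.31-fold among Wild Type mice. Its biological coefficient of variation, the relative spread between mice that edgeR estimates beyond counting error, was 0.317, above that of 74.0% of tested genes.

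Cd34 encodes a sialomucin of the cell surface that fibroblasts share with endothelial cells and blood progenitors (chromosome 1, 194938819 to 194961279). It stood at 72.9, 77.6 and 60.2 CPM in the Itga8-Cre libraries, at 61.0, 112 and 93.5 CPM in the Myh11-Cre libraries and at 77.1, 65.1 and 64.3 CPM in the Wild Type libraries. Its order of libraries was close to that of Dcn. The sum of 10 endothelial markers varied 1.37-fold over the 9 libraries (659 to 900.5 CPM) and was highest in Wild Type 1. Cd34 varied 1.86-fold and was highest in Myh11-Cre 2. The part of endothelial cells in the level of Cd34 was not tested.

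Pi16, a peptidase inhibitor that marks the adventitial subset common to many tissues, lies on chromosome 17 (29317680 to 29330593). It stood at 65.2, 45.3 and 50.2 CPM in the Itga8-Cre libraries, at 35.4, 83.1 and 98.6 CPM in the Myh11-Cre libraries and at 82.4, 54.6 and 73.4 CPM in the Wild Type libraries. Unlike Pdgfra, it was low in Itga8-Cre 2. The ratio of Pi16 to Pdgfra counts was 0.975, 0.488 and 1.22 in Itga8-Cre, 0.912, 0.948 and 1.39 among Myh11-Cre mice, and 1.39, 0.992 and 1.48 among Wild Type mice. The groups overlapped, and the lowest ratio was in Itga8-Cre 2.

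Clec3b (tetranectin, a plasminogen-binding lectin, chromosome 9, 123150946 to 123157432) followed the same order of libraries as Pi16. It stood at 16.5, 13.0 and 14.6 CPM in the Itga8-Cre libraries, at 12.0, 21.6 and 22.4 CPM in the Myh11-Cre libraries and at 20.3, 15.6 and 18.7 CPM in the Wild Type libraries. Serpinf1 encodes the secreted serpin PEDF, an inhibitor of vessel growth that fat cells also make (chromosome 11, 75409769 to 75422701, minus strand). It stood at 29.2, 24.4 and 25.2 CPM in the Itga8-Cre libraries, at 24.5, 48.9 and 48.2 CPM in the Myh11-Cre libraries and at 41.9, 22.8 and 34.7 CPM in the Wild Type libraries. The sum of 10 white fat markers was highest in Myh11-Cre 1 (12839 CPM), where Serpinf1 stood at 24.5 CPM. The part of fat cells in the level of Serpinf1 was not tested.

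Gsn, gelsolin, severs and caps actin filaments and is made by many cell types besides fibroblasts, smooth muscle included (chromosome 2, 35256380 to 35307892). It stood at 1031, 995 and 825 CPM in the Itga8-Cre libraries, at 992, 1804 and 1638 CPM in the Myh11-Cre libraries and at 1079, 1043 and 1038 CPM in the Wild Type libraries. The 3 Wild Type values lay within 1.04-fold of each other, and all 3 Itga8-Cre values lay below them. Myh11-Cre 1 was also below Wild Type, while Myh11-Cre 2 and 3 were above all other libraries.

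Ly6a encodes Sca-1, a GPI-anchored protein of adventitial progenitors that endothelial cells and lymphocytes also carry (chromosome 15, 74994877 to 74998031, minus strand). It stood at 48.3, 36.9 and 51.1 CPM in the Itga8-Cre libraries, at 54.5, 56.6 and 57.0 CPM in the Myh11-Cre libraries and at 49.4, 32.4 and 39.5 CPM in the Wild Type libraries. Among Myh11-Cre mice it did not share the spread of the other genes: the 3 values lay within 1.05-fold of each other and above all 6 other libraries. It ranged 1.39-fold among Itga8-Cre mice and 1.52-fold among Wild Type mice. Its coefficient of variation was 0.171, above that of 31.5% of tested genes and the lowest of the 10. Lymphocyte and thymocyte markers, 12 in all, summed to 246 to 657 CPM in Myh11-Cre libraries and 171 to 1071 CPM in Itga8-Cre libraries. In Wild Type libraries they summed to 238 to 329 CPM, and their highest value was in Itga8-Cre 3. Their part in the level of Ly6a was not tested.

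Per length of annotated exons the 10 genes spanned a wide range of abundance. Gsn led at 368 ± 104 CPM per kb (SD over all 9 libraries, genotypes together) and was above the next gene in 9 of 9 libraries without overlap. Dcn followed at 49.1 ± 16.6 CPM per kb and Ly6a at 39.3 ± 7.44 CPM per kb, with Dcn above Ly6a in 7 of 9 libraries. Dpt was at 27.2 ± 11.4 CPM per kb, above Clec3b in 9 of 9. Clec3b (17.3 ± 3.78), Lum (15.4 ± 5.43) and Serpinf1 (14.1 ± 4.47 CPM per kb) overlapped, and Lum was above Serpinf1 in 5 of 9 libraries. Cd34 (10.4 ± 2.35) and Pi16 (10.3 ± 3.25 CPM per kb) did not differ beyond their spread, with Cd34 higher in 5 of 9. Pdgfra was lowest at 6.23 ± 1.90 CPM per kb. The length is that of all annotated exons joined, so a gene whose long annotated isoforms are little used appears lower than it is.

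Promoter sequence is given for Pdgfra, Dpt and Cd34, 3 of the members whose levels moved together across mice. RefSeq (GRCm38.p6) start sites were at hand for 6 of the 10 genes. The 250 bases before the start are shown 5′ to 3′ for Pdgfra (chr5:75152001-75152250), Dpt (chr1:164796413-164796662) and Cd34 (chr1:194938571-194938820), all on the plus strand, in lower case with motif matches in capitals.
Pdgfra: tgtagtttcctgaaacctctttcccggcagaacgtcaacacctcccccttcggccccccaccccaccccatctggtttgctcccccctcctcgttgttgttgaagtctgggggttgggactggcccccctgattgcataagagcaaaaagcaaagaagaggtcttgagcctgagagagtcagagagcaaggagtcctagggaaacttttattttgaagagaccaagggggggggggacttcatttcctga
Dpt: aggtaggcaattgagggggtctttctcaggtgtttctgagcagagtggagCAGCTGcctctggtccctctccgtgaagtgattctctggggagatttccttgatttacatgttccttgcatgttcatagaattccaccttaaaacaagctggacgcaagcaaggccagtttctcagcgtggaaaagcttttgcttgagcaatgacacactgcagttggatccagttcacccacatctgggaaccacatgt
Cd34: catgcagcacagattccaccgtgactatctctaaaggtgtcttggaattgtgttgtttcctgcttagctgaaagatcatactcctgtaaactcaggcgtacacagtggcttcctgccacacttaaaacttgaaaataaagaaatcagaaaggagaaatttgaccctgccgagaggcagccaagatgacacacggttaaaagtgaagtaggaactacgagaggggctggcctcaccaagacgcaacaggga
The 6 motifs searched on both strands were the core promoter boxes TATAAA and CCAAT, the Sp1 box GGGCGG, the AP-1 site TGACTCA, the E-box CAGCTG and the TEAD site CATTCC, none of which holds another. Dpt held 1 match, CAGCTG, which 13.0% of the 32851 promoter windows of this length hold. Pdgfra and Cd34 held 0 matches, where TATAAA is found in 12.4%, CCAAT in 33.8%, GGGCGG in 32.7%, TGACTCA in 4.46% and CATTCC in 12.6% of windows. CpG pairs numbered 4 in Pdgfra, 3 in Dpt and 6 in Cd34, against a median of 6. Of these 6 letter strings, the 3 windows printed thus have none in common. Gsn, Pi16 and Serpinf1 also had start sites at hand and are not printed. Gsn moved closely with Dpt and Cd34 too (Pearson's r 0.93 and 0.92). Its windows at chr2:35256109-35256358 and chr2:35266494-35266743 hold CAGCTG, as Dpt does, and that at chr2:35282130-35282379 does not. CCAAT, found in 33.8% of windows, is held by the latter 2 Gsn windows and by those of Pi16 and Serpinf1. The levels of Pi16 and Serpinf1 had r = 0.89. The Pi16 window (chr17:29318632-29318881) begins after the annotated start of that gene.

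How the fibroblast genes stood in aortae of the Itga8-CreERT2 line was read from Itga8-Cre against Wild Type. Of the 10 genes, 5 had a log2 fold change above 0 and 5 below, with a median of -0.05 and a range of -0.39 to 0.29. Over all genes tested 55.9% were above 0, and the median was 0.04. Pi16 averaged 53.5 ± 10.4 CPM (SD, n = 3) among Itga8-Cre mice and 70.1 ± 14.2 CPM among Wild Type mice, a log2 fold change of -0.39 (SE 0.34, 95% interval -1.17 to 0.39). Serpinf1 had -0.34 (SE 0.29) and Clec3b -0.31 (SE 0.23). None passed in edgeR, with adjusted p from 0.733 to 0.976, and 0 of 10 had an unadjusted p under 0.05, where 6.78% of all genes did.

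Only Gsn had groups that did not overlap in that comparison, being lower in all 3 Itga8-Cre libraries, where 5.37% of all genes were lower in this way. Its means were 950.1 ± 109.8 CPM for Itga8-Cre and 1054 ± 22.4 CPM for Wild Type, with a log2 fold change of -0.15 (95% interval -0.68 to 0.39), which did not pass (edgeR adjusted p = 0.873). The sum of the 10 smooth muscle markers was likewise lower in every Itga8-Cre library (1439 to 2169 CPM) than in any Wild Type library (2193 to 3558 CPM), with 8 of 10 markers below 0, a median log2 fold change of -0.63 and 0 called. Its part in the level of Gsn was not tested. For Cd34 the interval of -0.45 to 0.51 and for Ly6a that of -0.22 to 0.55 were the narrowest in this comparison. For Pdgfra (upper bound 1.06), Lum (0.93), Dpt (lower bound -0.96) and Pi16 (-1.17) the intervals were wide. With 3 mice a group, the fit thus leaves differences up to those bounds possible. Without Itga8-Cre 2, 1 of 10 genes stayed above 0, and Pdgfra moved from 0.29 to -0.03.

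**Figure D2:**
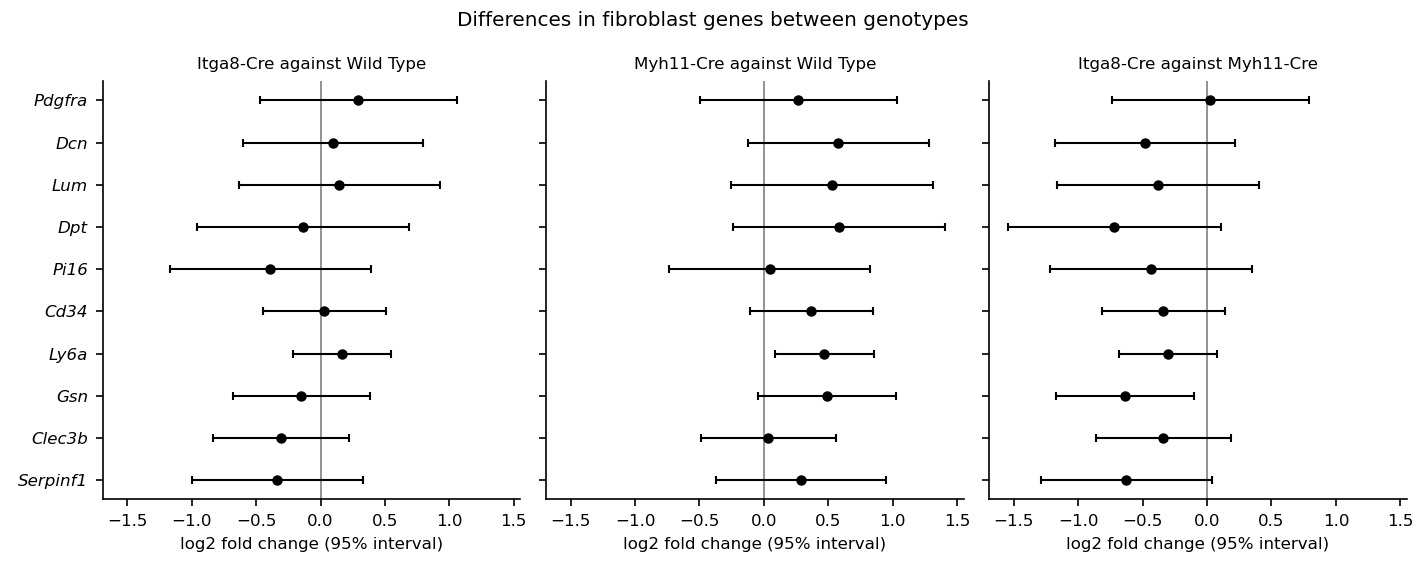
Log2 fold change (x axis) of each gene (y axis) in the 3 comparisons, from the edgeR fit, with the 95% interval of each gene. All 10 values lie above 0 for Myh11-Cre against Wild Type, and the interval of Ly6a (0.09 to 0.85) is the single one there that leaves out 0.

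In aortae of the Myh11-CreERT2 line against Wild Type, all 10 had a log2 fold change above 0, with a median of 0.42 and a range of 0.03 to 0.58, where 50.9% of all genes were above 0 with a median of 0.01. Dpt averaged 61.8 ± 30.3 CPM (SD, n = 3) among Myh11-Cre mice and 41.3 ± 5.76 CPM among Wild Type mice (log2 fold change 0.58, SE 0.36). Dcn averaged 361 ± 142 CPM against 242 ± 34.5 CPM, 1.49 times as high (0.58, SE 0.31). None passed in edgeR (adjusted p from 0.252 to 0.955). By DESeq2 the smallest adjusted p of the 10 was 0.171, for Ly6a, in a comparison where DESeq2 called 4.44% of all genes.

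Ly6a had the smallest p of the 10. Its means were 56.0 ± 1.33 CPM for Myh11-Cre and 40.5 ± 8.51 CPM for Wild Type, 1.39 times as high, with a log2 fold change of 0.47 (SE 0.17, 95% interval 0.09 to 0.85). It was higher in 3 of 3 Myh11-Cre mice than in any Wild Type mouse, the only 1 of the 10 genes whose groups did not overlap, where 11.3% of all genes were higher in this way. Its unadjusted p was 0.0218 and its adjusted p 0.252 (edgeR's quasi-likelihood test). It was the 1 gene of 10 with an unadjusted p under 0.05, which 16.4% of all genes had (6.93% of all genes being higher in Myh11-Cre at that level).

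For the other 9 genes Myh11-Cre 2 and 3 were above the Wild Type mean and Myh11-Cre 1 was below it. Without Myh11-Cre 1, the median log2 fold change was 0.56 and 7 of 10 genes had an unadjusted p under 0.05, all higher, where 19.3% of all genes had one in that setting (10.1% higher). The adjusted p was 0.0893 for Dpt and 0.116 for Dcn, so 0 passed in edgeR. Without Myh11-Cre 2 the median was 0.20. Skeletal muscle transcripts were most abundant in Itga8-Cre 3, Myh11-Cre 2 and Myh11-Cre 3. Without those 3 libraries, a setting chosen after seeing the data, 1 of 10 genes was above 0 and the median was -0.42, where 47.7% of all genes were above 0. There Pi16 had -0.98, Dpt -0.53 and Ly6a 0.43. A single Myh11-Cre library is left in that setting, and its spread is taken to be that of the other groups. That library is Myh11-Cre 1, which was below the Wild Type mean for the 9 genes other than Ly6a. Their values below 0 were thus set by the choice of libraries.

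**Figure D3:**
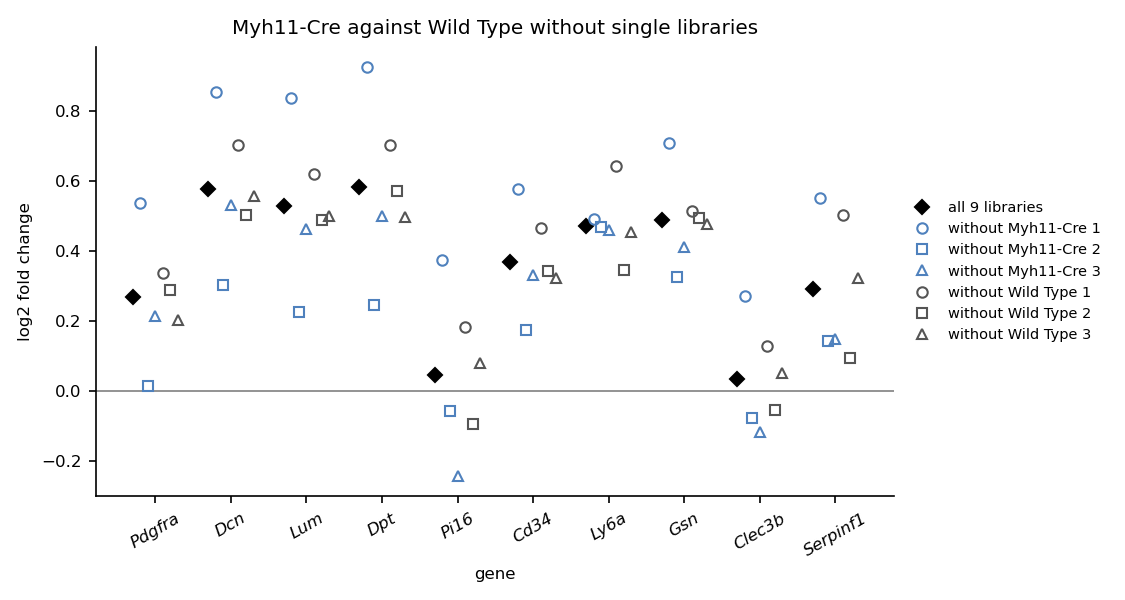
Log2 fold change between Myh11-Cre and Wild Type (y axis) for each gene (x axis), with all 9 libraries (black) and without single Myh11-Cre (blue) or Wild Type (grey) libraries. Leaving out Myh11-Cre 1 gives the highest value for 9 genes, leaving out Myh11-Cre 2 brings Pdgfra to 0.01, and Pi16 and Clec3b fall on both sides of 0.

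Markers of other tissue also differed between libraries, not all in the order of the fibroblast genes. Skeletal muscle markers summed to 88.7, 10137 and 15807 CPM in the Myh11-Cre mice and to 831 to 1767 CPM in the Wild Type mice, and all 11 had a log2 fold change above 0. Smooth muscle markers summed to 1220.1 to 3616 CPM in Myh11-Cre mice and 2193 to 3558 CPM in Wild Type mice, with the lowest value in Myh11-Cre 1. Itga8-Cre mice had 1439 to 2169 CPM. Of these 10 markers, 6 had a log2 fold change below 0 in Myh11-Cre against Wild Type and 4 above, with a median of -0.19. Acta2 had -0.31. The 4 above 0, named after their values were seen, were Des at 1.76 (DESeq2 adjusted p = 0.0490), Pln at 0.71, Cnn1 at 0.15 and Synpo2 at 0.14. The part of skeletal muscle in the levels of these 4 genes, and so in the smooth muscle sum, was not tested. The 10 mesothelial markers, from the lining that covers the vessel's outer face in the body cavities, summed to 168 to 360.1 CPM in Myh11-Cre mice, 124 to 195 CPM in Itga8-Cre mice and 59.8 to 113 CPM in Wild Type mice, so that they overlapped with Wild Type in neither Cre line. Macrophage markers, 11 in all, summed to 431 to 1097 CPM in Myh11-Cre mice and 595 to 1099 CPM in Itga8-Cre mice, against 405 to 553 CPM in Wild Type mice. White fat markers summed to 5652 to 12839 CPM, brown fat markers to 2548 to 8015 CPM and Schwann cell and nerve markers to 262 to 684 CPM over all libraries. Myh11-Cre and Wild Type overlapped for both fat lists and not for the nerve list (262 to 364 CPM against 415 to 684 CPM). Across all lists only Zic1 (brown fat) and Rag2 (thymocytes) were at 0 counts in a library, 1 each. Skeletal muscle markers and the fibroblast genes kept the same order in some libraries only. Myh11-Cre 2 and 3 had the highest sums of both (2854 and 2533 CPM for the 10 fibroblast genes). Myh11-Cre 1, lowest in skeletal muscle markers, had the next to lowest fibroblast sum, 1479 CPM. Itga8-Cre 3, next after Myh11-Cre 2 and 3 in skeletal muscle markers, had the lowest, 1312 CPM. The part of these tissues in the levels above was not tested.

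**Figure D4:**
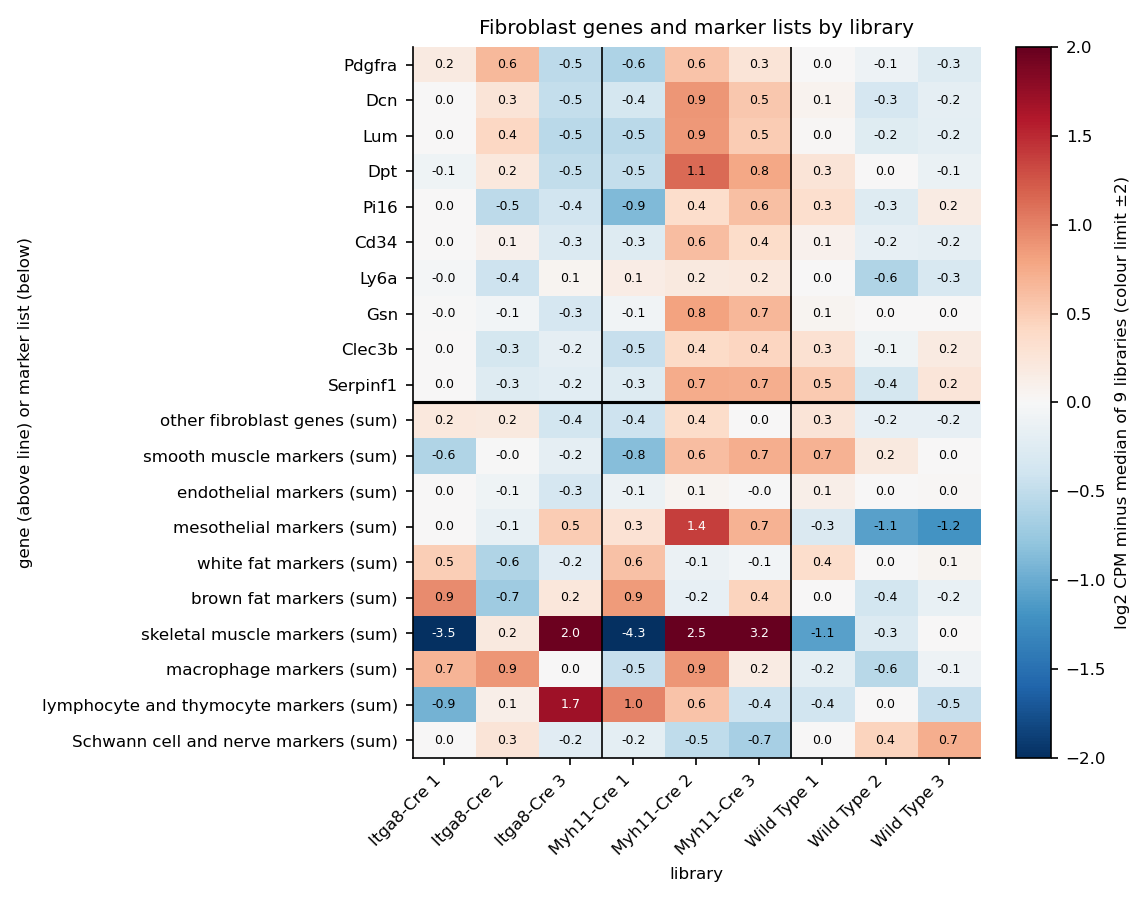
Log2 CPM of the 10 genes (above the line) and log2 of the summed CPM of each marker list (below) in each library (x axis), as the difference from the median of the 9 libraries. Colours stop at ±2 and the numbers give the values. The fibroblast genes are high in Myh11-Cre 2 and 3, where skeletal muscle markers are high too, and low in Itga8-Cre 3, where skeletal muscle markers are also high. Apart from Ly6a, they are below the median in Myh11-Cre 1, where skeletal muscle markers are lowest.

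The Cre lines were then set against each other, as Itga8-Cre against Myh11-Cre. Of the 10 genes, 9 had a log2 fold change below 0 and Pdgfra 0.03, with a median of -0.41, where 48.7% of all genes were below 0 and 51.3% above, with a median of 0.01. Pdgfra turned to -0.02 with RLE scaling, so its direction was not settled. Gsn averaged 950.1 ± 109.8 CPM among Itga8-Cre mice and 1478 ± 429 CPM among Myh11-Cre mice, where it was 1.56 times as high. Its log2 fold change was -0.64 (SE 0.24, 95% interval -1.17 to -0.10), with an unadjusted p of 0.0249 and an adjusted p of 0.521 in edgeR. It was the only 1 of the 10 genes with an unadjusted p under 0.05, which 9.48% of all genes reached (1.83% lower in Itga8-Cre). The groups of Gsn overlapped, as Myh11-Cre 1 lay below Itga8-Cre 1 and 2.

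Dpt had -0.72 (SE 0.36) and Serpinf1 -0.63 (SE 0.29) between the Cre lines, and neither passed in edgeR (adjusted p = 0.551 and 0.529). Ly6a was the only gene whose groups did not overlap, lower in all 3 Itga8-Cre libraries (log2 fold change -0.30, 95% interval -0.69 to 0.08), where 3.07% of all genes were lower in this way. DESeq2 gave adjusted p values from 0.222 (Gsn) upwards. Without Myh11-Cre 1 the median was -0.72 and 8 of 10 genes had an unadjusted p under 0.05, all lower in Itga8-Cre, where 15.1% of all genes had one in that setting (6.80% lower). The adjusted p started at 0.253, and 0 passed in edgeR. Without the 3 libraries rich in skeletal muscle transcripts, 9 of 10 genes were above 0, with a median of 0.38. Of all genes 54.8% were above 0 there. This setting leaves Myh11-Cre 1 alone in its group, a library in the bottom 2 for 8 of the 10 genes. It takes out Myh11-Cre 2 and 3, in the top 2 for 10 and 9 genes. The turn above 0 was thus largely set by the choice of libraries. Pdgfra had the highest value there, 1.03, against 0.03 with all libraries. The comparisons share libraries, so a library such as Myh11-Cre 1 enters both comparisons of Myh11-Cre.

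A wider list of 37 other fibroblast genes, with collagens, fibulins, further proteoglycans and secreted factors, was tested in the same fit. In Itga8-Cre against Wild Type 25 of 37 were below 0 (median -0.19), where 44.1% of all genes were below 0, and edgeR, DESeq2 and limma voom called 0. Cygb, cytoglobin, a globin of fibroblasts and mural cells, had -0.54 (SE 0.21, unadjusted p 0.0308, edgeR adjusted p = 0.699), and the scavenging chemokine receptor Ackr3 had -0.73 (SE 0.29). They were the 2 of 37 with an unadjusted p under 0.05 in that comparison, both lower, where 2.81% of all genes were lower at that level. Dpp4, a surface peptidase of the Pi16 subset, had 0.50 (SE 0.24), and the Wnt antagonist Sfrp1 had -0.39 (SE 0.19).

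In Myh11-Cre against Wild Type 23 of the 37 were above 0 (median 0.07), where 50.9% of all genes were. The 3 tools called 0 of them. An unadjusted p under 0.05 in edgeR was found for 0 of the 37, where 16.4% of all genes had one. The smallest p belonged to Fbln1, fibulin 1, at 0.97 (SE 0.44), followed by the collagen-binding proteoglycan Fmod at 0.58 (SE 0.40), Fbln2 at 0.37 (SE 0.28) and Medag at 0.26 (SE 0.23). The median of this list was below that of the 10 genes (0.42), and the difference was not tested. Between the Cre lines 30 of 37 were below 0 (median -0.28), where 48.7% of all genes were. Again 0 were called, and 0 had an unadjusted p under 0.05 in edgeR, where 9.48% of all genes had one. Pcolce2, an enhancer of procollagen processing, had -0.75 (SE 0.33), Ackr3 -0.64 (SE 0.29), Aspn -0.57 (SE 0.28) and Ogn -0.79 (SE 0.43). The summed level of the 37 genes was 7697 CPM in Myh11-Cre 2 but 5963 CPM in Myh11-Cre 3, below Itga8-Cre 1 (6878 CPM). Col1a1, a chain of collagen I, named after its values were seen, was lowest in Myh11-Cre 1 (293 CPM) and highest in Itga8-Cre 2 (908 CPM), with 759 CPM for Myh11-Cre 2 and 467 CPM for Myh11-Cre 3.

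The 10 genes varied together, but not as 1 block. Pearson's r of log2 CPM over the 9 libraries was computed for all 45 pairs, with exact two-sided permutation tests and Benjamini-Hochberg adjustment over the pairs. It ranged from -0.07 to 0.99 with a median of 0.74, and 23 pairs passed, all positive. Pairs share library and scaling, so a common shift of a library moves them together. With Spearman's rho 17 pairs passed, and after centring on genotype means 14 passed, where permutation within genotypes allows no p below 0.00463. The number was 35 without Itga8-Cre 2 and 15 without Myh11-Cre 2.

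Dcn, Lum, Cd34 and Dpt were close to each other. Dcn and Cd34 had r = 0.99 (exact permutation p = 1.38e-05, adjusted p = 0.000155, rho = 0.98 with exact permutation p = 4.96e-05), 0.96 without the 2 libraries farthest from the median of Dcn, and 0.98 after centring. Dcn and Lum, the neighbours on chromosome 10, had r = 0.98 (exact permutation p = 5.51e-06, adjusted p = 0.000124, rho = 0.98 with exact permutation p = 4.96e-05) and 0.96 without the 2 farthest libraries. Dpt and Cd34, both on chromosome 1, had r = 0.98 (exact permutation p = 3.03e-05, adjusted p = 0.000273, rho = 0.97 with exact permutation p = 0.000165) and 0.90 without the 2 farthest. Pdgfra was nearest to Lum, with r = 0.93 (exact permutation p = 0.000537, adjusted p = 0.00284, rho = 0.92 with exact permutation p = 0.00131) and 0.95 without the 2 farthest.

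Pi16, Clec3b and Serpinf1 varied with each other. Pi16 and Clec3b had r = 0.99 (exact permutation p = 2.76e-06, adjusted p = 0.000124), the same rank order in all 9 libraries (rho = 1, exact permutation p = 5.51e-06), r = 0.99 without the 2 farthest libraries and 0.99 after centring. Clec3b and Serpinf1 had r = 0.92 (exact permutation p = 0.000807, adjusted p = 0.00363, rho = 0.87 with exact permutation p = 0.00451) and 0.93 without the 2 farthest. Pdgfra and Pi16, by contrast, had r = 0.44 (exact permutation p = 0.239, adjusted p = 0.299, rho = 0.43 with exact permutation p = 0.25). That r rose to 0.69 without the 2 libraries farthest from the median of Pdgfra, so its low value rested in part on them. Whether 2 correlations differ was not tested, and these groups of genes were named after their values were seen.

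Some pairs that passed rested on a few libraries. Of the 23 pairs that passed, 6 had r under 0.5 without the 2 farthest libraries. Each of these 6 joined Serpinf1 or Clec3b to Dcn, Cd34, Dpt or Gsn, the last being in neither group. Dcn and Serpinf1, for example, went from 0.77 (exact permutation p = 0.0156, adjusted p = 0.0334, rho = 0.63 with exact permutation p = 0.076) to 0.37. Other pairs fell too, Dcn and Gsn from 0.90 to 0.53 and Cd34 and Gsn from 0.92 to 0.55. Pdgfra with Clec3b and with Serpinf1, which did not pass, rose instead, from 0.39 and 0.42 to 0.72 and 0.70. Gsn passed with 6 of the 9 other genes, most closely with Dpt (r = 0.93, exact permutation p = 0.000568, adjusted p = 0.00284, rho = 0.88 with exact permutation p = 0.00308, and 0.67 without the 2 farthest). Ly6a passed with 0 of the 9, its r ranging from -0.07 with Pdgfra to 0.57 with Serpinf1 (exact permutation p = 0.864 and 0.108, adjusted p = 0.864 and 0.144).

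**Figure D5:**
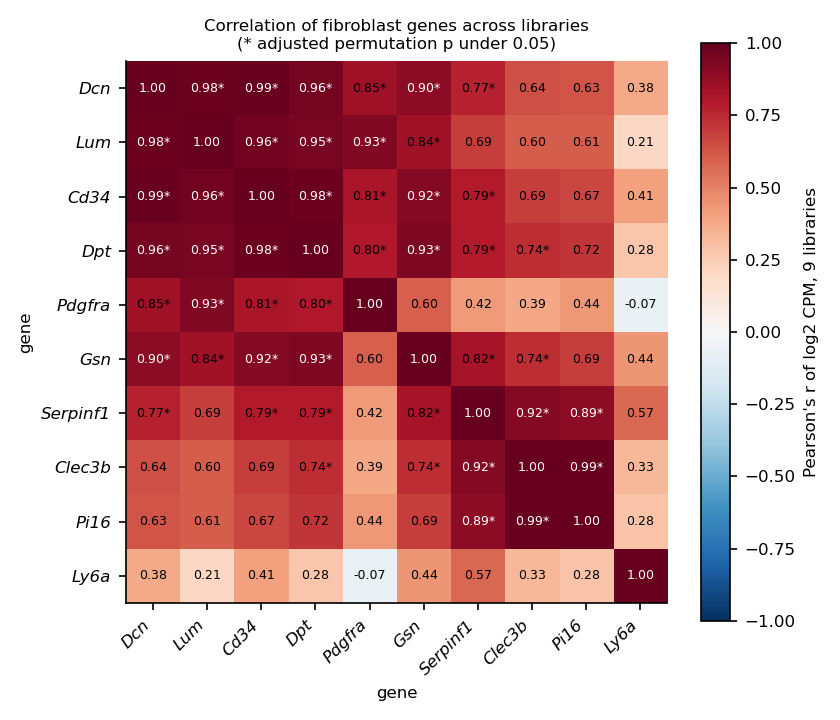
Pearson's r of log2 CPM over the 9 libraries for each pair of the 10 genes (both axes), with a star where the adjusted permutation p is under 0.05. Dcn, Lum, Cd34 and Dpt form a block of 0.95 to 0.99, Serpinf1, Clec3b and Pi16 a second of 0.89 to 0.99, and Ly6a has no star.

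The genes most like 3 of the members were listed by Pearson's r over the 9 libraries, as a measure of likeness without a test, among 9455 named genes with a mean of at least 10 CPM. Nearest to Pdgfra were Nid2 (0.97), a basement membrane nidogen, Adgra2 (0.96), Anpep (0.95), Stab1 (0.95), a scavenger receptor of macrophages and some endothelia, and Fkbp10 (0.95), a collagen chaperone. The macrophage sum and Pdgfra were both highest in Itga8-Cre 2, at 1099 CPM and 92.8 CPM. Nearest to Dcn were Cd34 (0.99), Lum (0.98), Serping1 (0.98), the C1 inhibitor, Fbln2 (0.97) and Tspan9 (0.96). Nearest to Pi16 were Clec3b (0.99), Cyp27a1 (0.96), Scara3 (0.95), Pcolce2 (0.94) and Lmna (0.94). Thus 2 of the 5 nearest genes of Dcn and 1 of the 5 of Pi16 were other members, while the member nearest to Pdgfra, Lum, ranked 21.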

How the data were processed

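RNA of whole aortae was made into stranded poly(A) libraries (TruSeq) and read as single 75 nt reads, per the labels' protocols. The authors deposited raw counts per gene symbol, used here as whole numbers. The submitters' processing notes list the build GRCm38.p6 and, in no stated role, the aligner STAR 2.7.0f, the trimmer fastp 0.20.0, featureCounts of Subread 1.6.4, DESeq2 and Salmon 0.13.1. The sources used here give neither annotation release nor strand setting. Genes that overlap a member and are listed held at most 0.563% of its counts.

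The model was edgeR 4.0.16 (R 4.3.3) on all 9 libraries with a mean per genotype, TMM factors, filterByExpr by genotype and robust quasi-likelihood tests. Adjusted p-values (Benjamini-Hochberg) cover 19412 genes, with a threshold of 0.05. SE and 95% intervals were derived from the F statistic. DESeq2 1.42.0 and voom of limma 3.58.1 served as alternatives. The pipeline was tested on simulated data. Log2 CPM used a prior count of 2. Positions and exon lengths are from GENCODE M21 (GRCm38). Named genes were all members, up to 4 other fibroblast genes per comparison by smallest p, the 5 genes most like Pdgfra, Dcn and Pi16, and the first gene of a marker list. Other genes were chosen as stated. Members, lists and tests were chosen with earlier results of these data known. The labels number the mice of each genotype but do not say that they came from separate litters or days, so p-values measure only the spread between these mice. Counts limit precision little: the lowest count of a member was 437.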

Additional observations from a re-analysis of the deposited data

How the results depend on the processing

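No setting tried gave a called member in any of the 3 comparisons (8 planned kinds of alternative and 1 chosen after seeing the data). Counts over all genes moved: DESeq2 called 30, 828 and 19 genes in Itga8-Cre against Wild Type, Myh11-Cre against Wild Type and Itga8-Cre against Myh11-Cre, where edgeR called 0. In Myh11-Cre against Wild Type edgeR called 1 gene without a filter on low counts and 1 with mouse number as a replicate block. Mouse numbers were not taken as pairs: 5 of 9 same-numbered pairs had residual correlations above 0.1 (0.03 to 0.40), and 5 of 9 libraries correlated best with their own number. Using mouse number as a block changed no other count of calls, and members above 0 stayed at 5, 10 and 1.

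Members above 0 in Itga8-Cre against Wild Type ranged from 1 to 6 on leaving out single libraries, and from 0 to 1 in Itga8-Cre against Myh11-Cre. RLE factors, DESeq2 and a fit of only the 2 groups gave 0 there, with Pdgfra at -0.024, -0.030 and -0.00372. Correlated pairs numbered 14 after centring and 15 to 35 on leaving out single libraries.

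On leaving out single libraries, values in Itga8-Cre against Wild Type ranged from -0.032 to 0.54 (Pdgfra), -0.088 to 0.26 (Dcn), -0.12 to 0.35 (Lum), -0.33 to 0.014 (Dpt) and -0.058 to 0.12 (Cd34). In Myh11-Cre against Wild Type they ranged from -0.24 to 0.37 (Pi16) and -0.12 to 0.27 (Clec3b), and limma voom gave -0.068 and -0.00391. In Itga8-Cre against Myh11-Cre Pdgfra ranged from -0.31 to 0.27 in these settings.

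Without the 3 libraries richest in skeletal muscle transcripts, only Myh11-Cre 1 is left of its group. In that setting 1 member was above 0 in Myh11-Cre against Wild Type and 9 in Itga8-Cre against Myh11-Cre. Against Wild Type Myh11-Cre had -0.49 (Pdgfra), -0.21 (Dcn), -0.40 (Lum), -0.53 (Dpt), -0.98 (Pi16), -0.17 (Cd34), -0.084 (Gsn), -0.60 (Clec3b) and -0.43 (Serpinf1). Itga8-Cre against Myh11-Cre had 0.47 (Dcn), 0.75 (Lum), 0.54 (Dpt), 0.63 (Pi16), 0.29 (Cd34), 0.017 (Gsn), 0.29 (Clec3b) and 0.12 (Serpinf1), and Pdgfra, which kept its sign, had 1.03. In Itga8-Cre against Wild Type Dpt had 0.012 and Pdgfra, with its sign kept, 0.54 (edgeR unadjusted p 0.0174, adjusted p 0.975). The cause was not tested. With 3 mice a group, the narrowest interval in Itga8-Cre against Wild Type ran from -0.22 to 0.55 (Ly6a).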
